A study of Mus musculus with 6 samples.

Results

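Mitochondrial ribosomal protein genes were examined across arrays of leukaemic mouse B cells with and without gamma-catenin. Members were chosen by symbol alone, as every gene whose symbol begins with Mrpl or Mrps followed by a digit, and each was read from whichever of its probe sets was brightest on average. The rule gave 77 of the 19938 genes that had a probe set with exactly 1 gene symbol. Of these, 48 carry large subunit (Mrpl) and 29 small subunit (Mrps) symbols. One further row, shared by Mrpl53 and another gene, was outside the rule and was not analysed here.

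The groups were Jup-/- (KO, 3 arrays) and Jup+/+ (WT, 3 arrays), both labelled C57BL/6. Jup encodes gamma-catenin, or plakoglobin, a junction protein related to beta-catenin. In both groups CD45.1+ mice were first reconstituted with CD45.2+ fetal liver cells of the given genotype. Marrow of these chimeras was transduced with a BCR-ABL1 retrovirus that also carried GFP and was given to lethally irradiated CD45.1+ recipients, so that any KO effect was read in cells transplanted in series and driven by a viral oncogene. GFP+ B220+ BP-1+ CD45.2+ cells were sorted from bone marrow at day 21 and their total RNA was hybridised to 1-colour Affymetrix arrays. The labels call the samples biological replicates without saying whether each came from 1 mouse, so p-values measure the spread between these samples. The sources used here give no age for the mice.

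Ribosomes inside mitochondria translate the few proteins that mitochondrial DNA encodes, all of them core subunits of the respiratory chain and ATP synthase. Their RNA comes from mitochondrial DNA, whereas every protein of the large and small subunit is encoded in the nucleus, made in the cytoplasm and imported. By origin, some members descend from bacterial ribosomal proteins and others were added in the mitochondrial lineage.

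As a check of the labels, Jup read 7.04, 7.06 and 7.27 in KO cells, against 8.04, 7.62 and 8.51 in WT cells, on the log2 scale, with no overlap (log2 difference -0.93, limma adjusted p = 0.171). The 13 measured B-lineage markers, among them Pax5 and Enpep (BP-1), had means over the arrays between 10.56 and 13.98, against a median of 7.58 over all probe sets. WT replicate 2 stood apart in sex-linked genes, with Xist at 6.20 and Uty at 10.09, against Xist of 13.03 to 13.38 and Uty of 4.96 to 5.54 in the other 5 arrays. The Y-linked Kdm5d and Eif2s3y were also highest there, at 8.57 and 8.90. This is the pattern of male cells in WT replicate 2 and of female cells in the other 5 arrays. The fit had no term for sex. The medians of the 6 arrays lay between 7.38 and 7.46.

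Promoters were examined for letters that match known binding motifs, since NRF1 and the ETS factor GABP are known activators of genes for mitochondrial proteins. RefSeq promoters of GRCm38.p6 were matched for 68 of the 77 members, in 74 windows, and only the 250 bases before each start were searched, on both strands. The ETS motif was searched as CCGGAAG, the YY1 motif as ATGGCGG, the E-box as CACGTG and the NRF1 motif with A or C allowed at its middle, none of which overlapped another in the windows shown. The windows of 5 members are printed with matches in capitals. Mrpl23, Mrpl12 and Mrpl39 are among the large subunit genes with the lowest moderated t in KO against WT, Mrps22 among those of the small subunit, and Mrpl43 had the highest of all.

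Mrpl23 (chr7:142532782-142533031, + strand): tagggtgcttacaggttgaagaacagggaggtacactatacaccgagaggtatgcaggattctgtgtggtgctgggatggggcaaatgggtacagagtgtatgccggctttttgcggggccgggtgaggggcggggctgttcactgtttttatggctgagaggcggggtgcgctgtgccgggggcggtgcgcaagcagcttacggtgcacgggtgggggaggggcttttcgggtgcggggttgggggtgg
Mrpl12 (chr11:120484387-120484636, + strand): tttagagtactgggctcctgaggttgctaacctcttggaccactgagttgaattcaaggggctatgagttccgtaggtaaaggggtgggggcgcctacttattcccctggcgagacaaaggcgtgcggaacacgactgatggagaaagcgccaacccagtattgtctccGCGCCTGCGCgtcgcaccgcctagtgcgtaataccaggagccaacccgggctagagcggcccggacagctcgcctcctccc
Mrpl39 (chr16:84735245-84735494, - strand): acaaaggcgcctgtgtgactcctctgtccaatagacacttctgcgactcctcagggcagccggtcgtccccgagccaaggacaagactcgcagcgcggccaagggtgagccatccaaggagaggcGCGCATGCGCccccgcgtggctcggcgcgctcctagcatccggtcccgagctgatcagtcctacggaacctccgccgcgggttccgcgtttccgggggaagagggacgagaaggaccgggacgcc
Mrps22 (chr9:98601680-98601929, - strand): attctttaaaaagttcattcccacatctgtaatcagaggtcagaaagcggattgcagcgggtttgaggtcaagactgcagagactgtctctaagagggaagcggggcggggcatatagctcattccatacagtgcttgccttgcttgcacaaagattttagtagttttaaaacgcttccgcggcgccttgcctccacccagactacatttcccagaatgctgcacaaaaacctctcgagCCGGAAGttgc
Mrpl43 (chr19:45006443-45006692, - strand): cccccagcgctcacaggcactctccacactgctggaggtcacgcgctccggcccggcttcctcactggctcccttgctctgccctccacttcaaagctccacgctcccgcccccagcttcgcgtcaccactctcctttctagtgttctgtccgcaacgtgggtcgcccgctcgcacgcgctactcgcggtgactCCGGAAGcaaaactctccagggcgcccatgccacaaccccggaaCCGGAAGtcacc

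The capitals mark an NRF1 motif in Mrpl12 and Mrpl39, 1 ETS motif in Mrps22 and 2 in Mrpl43, while the Mrpl23 window held none of the 4 motifs. The NRF1 motif was found in 8 of 74 member windows (10.8%) and in 2.44% of all 32851 promoter windows of that length. For the ETS motif the shares were 23.0% of member windows (17 of 74) and 6.91% of all. The E-box was in 9.46% (7 of 74 windows, from 5 genes) and 6.02%, and the YY1 motif in 1.35% (1 of 74) and 2.21%. The windows of all promoters were not matched to those of the members in base composition or expression level, and these shares were not tested. Large subunit windows held the NRF1 motif in 7 of 47 cases and small subunit windows in 1 of 27, whereas the ETS motif was in 11 of 47 and 6 of 27. Members with an NRF1 motif had a median log2 difference (KO minus WT) of -0.17 (8 genes), and those without one -0.13 (60 genes). With and without an ETS motif the medians were -0.14 (17 genes) and -0.13 (51 genes). For the E-box they went the other way, at -0.07 (5 genes) and -0.13 (63 genes). The 1 gene with a YY1 motif was at -0.09, and the 67 without one had a median of -0.13. A match is a string of letters, and binding was not measured.

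The comparison of KO with WT asked which transcripts differ in BCR-ABL1+ B cells that lack gamma-catenin. Most mitochondrial ribosomal protein genes had a slightly lower KO mean, and no single member passed the test. The KO mean was below the WT mean in 67 of 77 members, against 55.8% of all 21789 probe sets tested. The median log2 difference of the members was -0.13 and that of all probe sets -0.02. Differences of members lay between -0.33 and 0.06, and standard errors had a median of 0.09.

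At limma adjusted p under 0.05, 0 of the 77 members were lower and 0 higher, while 0.0688% and 0.0505% of all probe sets were. The lowest adjusted p of a member was 0.372. At an unadjusted p under 0.05, limma gave 10 members lower and 0 higher, and 4.73% of all probe sets were lower and 4.48% higher by that rule. This count moved with single arrays: leaving out KO replicate 1 gave 22, KO replicate 2 gave 1 and KO replicate 3 gave 4, while leaving out WT replicate 1 gave 6 and WT replicate 2 gave 5. All KO arrays lay below all WT arrays in 20 members (26.0%) and above them in 0, against 8.08% and 5.94% of all probe sets. Among the 13073 brighter probe sets, with a mean of at least 6.99, all KO arrays lay below in 10.2%. All 77 members were in that brighter range, with means of 7.72 to 12.31.

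The low values lay mainly in KO replicates 2 and 3. Each member was set against its own WT mean and these log2 deviations were averaged over the 77 genes. By that average, KO replicates 1, 2 and 3 were at -0.020, -0.146 and -0.184 and WT replicates 1, 2 and 3 at 0.076, -0.032 and -0.044. KO replicate 1 thus lay inside the WT range and the groups overlapped. The average over the KO arrays came to -0.117 ± 0.086 (SD, n = 3), and the SD of the WT arrays around their mean of 0 was 0.066. Members above their WT mean numbered 31, 12 and 3 in KO replicates 1, 2 and 3, and 64, 25 and 18 in WT replicates 1, 2 and 3. Of all 19938 genes, 8812, 9441 and 9494 were above their WT mean in KO replicates 1, 2 and 3, against 9757, 11114 and 9937 in WT replicates 1, 2 and 3. KO replicate 3 was the lowest of the 6 arrays for 42 members and KO replicate 2 for 23, as they were for 14.6% and 16.4% of all genes. WT replicate 1 was the highest for 47 members, and the share of all genes for which it was highest was not counted. It was the lowest for 0 members and for 24.9% of all genes. Below every WT array lay 25 members in KO replicate 1, 52 in KO replicate 2 and 63 in KO replicate 3, where these shares over all genes were 23.7%, 25.8% and 24.9%. Without WT replicate 2, the array that stood apart in sex-linked genes, the members' median log2 difference was -0.14, and 69 were lower. Leaving out KO replicate 1, 2 or 3 gave medians of -0.18, -0.109 and -0.096, with 72, 69 and 59 members lower. Leaving out WT replicate 1 or 3 gave -0.096 and -0.142, with 59 and 74 lower.

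**Figure D1:**
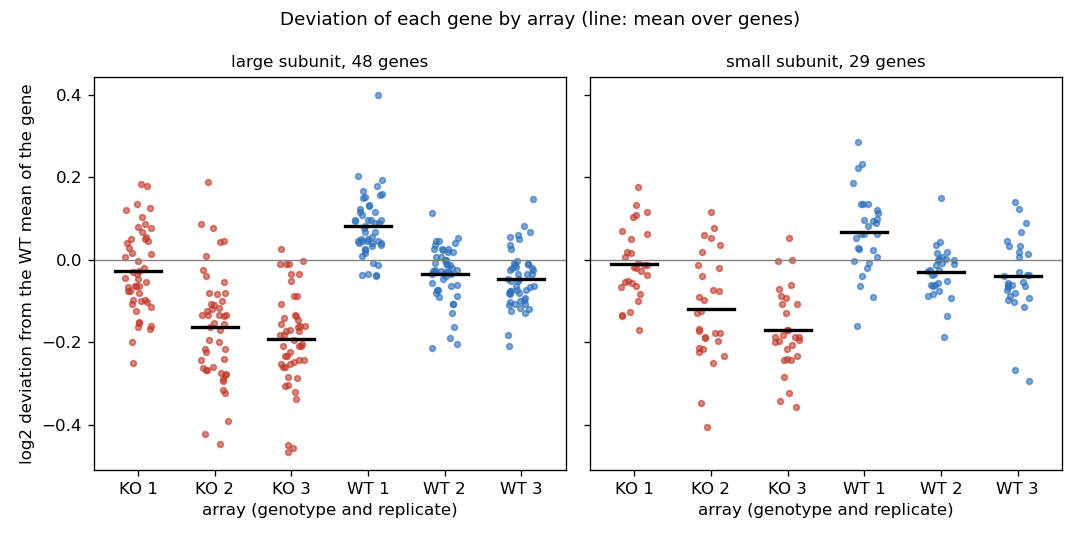
Deviation of each gene from its own WT mean (log2, y axis) by array (x axis, KO replicates left, WT replicates right), for 48 large and 29 small subunit genes; black lines are means over genes. KO replicates 2 and 3 sit lowest in both subunits, and KO replicate 1 lies within the range of the WT arrays.

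Other measures differed between the same arrays. The 17 measured proliferation markers had mean deviations of 0.032, -0.076 and -0.141 in KO replicates 1, 2 and 3 and of 0.024, 0.039 and -0.063 in WT replicates 1, 2 and 3, and 13 of them had a lower KO mean. Of 19 measured myeloid markers 16 had a higher KO mean, and their mean level was 8.33 to 8.45 in the KO arrays and 7.57 to 8.04 in the WT arrays. Among the defining ones, Mpo averaged 9.19 in KO and 7.59 in WT, whereas Csf1r averaged 6.53 in KO and 6.65 in WT. The mean level of 13 stromal markers was 6.90 to 6.95 in KO and 6.89 to 7.04 in WT, of 12 T and NK markers 6.94 to 7.17 and 7.07 to 7.11, and of 8 erythroid markers 7.40 to 7.49 and 7.24 to 7.41. Single members passed in 3 lists, with Mpo, Elane and Ctsg (myeloid) and Car1 (erythroid) higher and Sparc (stromal) lower. All 9 mature B cell markers had a higher KO mean, with a median log2 difference of 0.28. They ran from H2-Ab1 at 0.02 (SE 0.10) to Ms4a1 at 1.29 (SE 0.28), with Cd22 at 1.28 (SE 0.22). All KO arrays were above all WT arrays in 3 of the 9, Ms4a1 and Cd22 among them, against 5.94% of all probe sets. Of the 13 B-lineage markers 5 had a lower and 8 a higher KO mean, from Enpep at -0.23 (SE 0.09) to Rag1 at 0.50 (SE 0.16). The part of any of these lists in the family's difference was not tested. In sorted cells measured in bulk, fewer cells of a type and less RNA per cell cannot be told apart.

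In both subunits most KO means were below the WT means. In the large subunit, 43 of 48 members were lower on average, with a median log2 difference of -0.14 and a range of -0.33 to 0.06. The small subunit had 24 of 29 lower, a median of -0.12 and a range of -0.22 to 0.03. At an unadjusted p under 0.05 in limma, 7 large (14.6%) and 3 small subunit members (10.3%) were lower and 0 of either higher. Over all probe sets, 4.73% were lower and 4.48% higher by that rule. All KO arrays were below all WT arrays in 13 large (27.1%) and 7 small subunit members (24.1%), against 8.08% of all probe sets. Mean deviations of large subunit genes were -0.026, -0.162 and -0.191 in KO replicates 1, 2 and 3 and 0.081, -0.034 and -0.047 in WT replicates 1, 2 and 3. Those of small subunit genes were -0.009, -0.120 and -0.172 in KO and 0.068, -0.028 and -0.040 in WT, so both subunits ranked the arrays alike.

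The large minus small subunit deviation was -0.017, -0.042 and -0.019 in KO replicates 1, 2 and 3, against 0.013, -0.006 and -0.007 in the WT replicates. These averages, -0.026 ± 0.014 in KO and 0 ± 0.011 in WT (SD, n = 3 each), were not tested. Structures of the mammalian mitochondrial ribosome place 2 proteins with small subunit names, Mrps30 and Mrps18a, in the large subunit. Counted there, the large minus small deviation was -0.012, -0.025 and -0.022 in KO and 0.023, -0.009 and -0.014 in WT, and the groups overlapped. The medians of log2 differences then came to -0.134 for the large and -0.131 for the small subunit, and the gap between them shrank to -0.004 from -0.018.

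**Figure D2:**
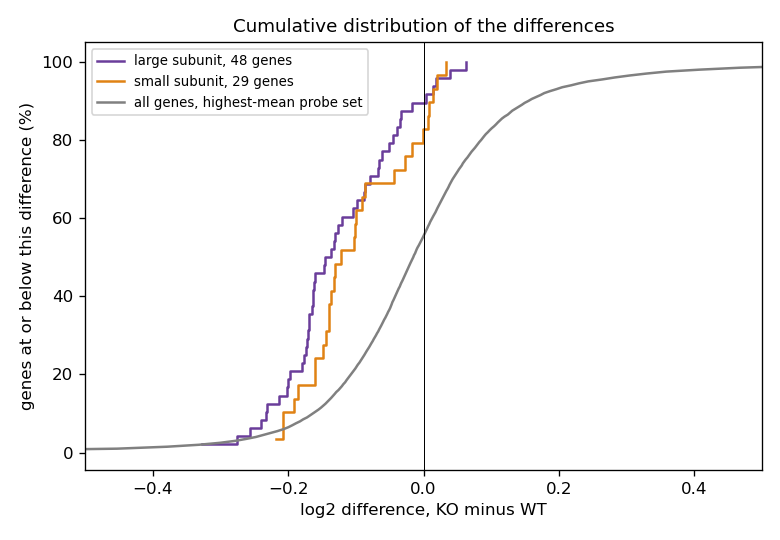
Cumulative share of genes (y axis, %) at or below a given log2 difference, KO minus WT (x axis, cropped to between -0.5 and 0.5), for large subunit genes, small subunit genes and all genes by their highest-mean probe set. Both subunit curves lie left of the curve of all genes over most of the range, with medians of -0.14 and -0.12.

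Among large subunit genes with homologues in bacteria, Mrpl23, a protein beside the exit of the peptide tunnel, had the lowest moderated t of the family. It read 11.59, 11.33 and 11.50 in KO cells, against 11.72, 11.76 and 11.78 in WT cells. All KO values were below all WT values, and limma gave a log2 difference of -0.28 with an SE of 0.09 (adjusted p = 0.372). A second Mrpl23 probe set gave -0.29, from values nearly equal to those of the first in every array. Whether it is an independent reading was not tested.

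Mrpl12 had the largest difference in size. Its protein forms the flexible stalk that recruits translation factors and is also known to bind the mitochondrial RNA polymerase. Values were 9.94, 9.56 and 9.54 in KO cells, against 9.97, 10.12 and 9.93 in WT cells. KO replicate 1 lay among the WT arrays and the other KO arrays clearly lower (log2 difference -0.33, SE 0.12, limma adjusted p = 0.445, unadjusted 95% interval -0.60 to -0.06). That interval allows neither for the number of probe sets tested nor for the choice of the largest difference. Without KO replicate 1 the log2 difference was -0.455, the lowest of its values with an array left out.

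Mrpl14, a protein of the face toward the small subunit, measured 9.12, 8.95 and 8.88 in KO and 9.35, 9.19 and 9.11 in WT. The highest KO array passed the lowest WT array by a narrow margin, and the log2 difference was -0.23 (SE 0.10). Mrpl22, which lines the peptide tunnel, measured 8.24, 7.94 and 8.05 in KO and 8.46, 7.87 and 7.85 in WT. Here WT replicate 1 alone was high and the groups overlapped fully, with a log2 difference of 0.01 (SE 0.17), and of 0.216 without WT replicate 1.

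Mrpl58, also called ICT1, is a peptidyl-tRNA hydrolase built into the large subunit that frees stalled peptides. It measured 9.74, 9.66 and 9.58 in KO and 9.86, 9.88 and 9.96 in WT. Every KO array was below every WT array (log2 difference -0.24, SE 0.08, limma adjusted p = 0.379).

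Among large subunit proteins specific to mitochondria, Mrpl39 measured 10.95, 10.80 and 10.97 in KO and 11.08, 11.07 and 11.20 in WT. Mrpl54 measured 10.42, 10.19 and 10.23 in KO and 10.53, 10.45 and 10.47 in WT. In both genes the groups did not overlap, with log2 differences of -0.21 (SE 0.08) and -0.20 (SE 0.09). Mrpl45, which ties the ribosome to the inner membrane beside the insertion machinery, measured 8.52, 8.33 and 8.71 in KO and 8.87, 8.59 and 8.70 in WT. KO replicate 3 was above WT replicates 2 and 3, so the groups overlapped (log2 difference -0.20, SE 0.12). Mrpl44, which has a fold of the RNase III family, gave a log2 difference of -0.17 (SE 0.10), and its KO mean was 7.64 against a WT mean of 7.81.

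The 16 mitochondria-specific large subunit genes had a median log2 difference of -0.17, and Mrpl37, Mrpl40, Mrpl43, Mrpl49 and Mrpl41 were among those nearest to 0 or above it. Mrpl37 (log2 difference -0.07, SE 0.12) and Mrpl40 (-0.04, SE 0.10) had means of 12.28 and 11.42 in KO and of 12.35 and 11.46 in WT. Mrpl43 had the highest moderated t of all members, with 10.05, 10.04 and 9.99 in KO and 10.02, 9.93 and 9.94 in WT. Its groups overlapped and the log2 difference was 0.06 (SE 0.07, limma adjusted p = 0.876), with an unadjusted 95% interval of -0.10 to 0.23. Mrpl49 gave 0.04 (SE 0.12) and Mrpl41 0.02 (SE 0.09). A second, dimmer Mrpl41 probe set gave -0.05, the only case among 8 members with several probe sets in which the signs differed.

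**Figure D3:**
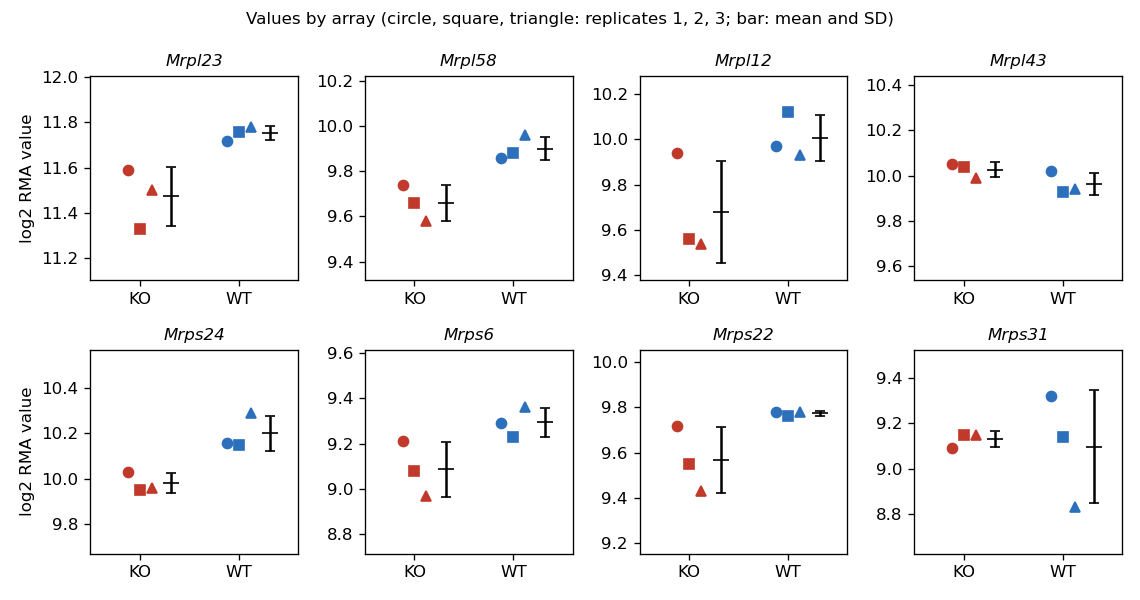
Log2 RMA values (y axis) of 4 large and 4 small subunit genes in the KO arrays (left of each panel) and WT arrays (right); circle, square and triangle are replicates 1, 2 and 3, and the bars give mean and SD (n = 3). Every panel spans the same log2 range. Mrpl23, Mrpl58, Mrps24, Mrps6 and Mrps22 show no overlap, Mrpl12 is low in KO replicates 2 and 3, and Mrpl43 and Mrps31 overlap.

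In the small subunit the lowest moderated t belonged to Mrps24, the homologue of a bacterial protein at the entry of the mRNA channel. It measured 10.03, 9.95 and 9.96 in KO and 10.16, 10.15 and 10.29 in WT. The KO arrays were all lower, and the log2 difference was -0.22 (SE 0.08, limma adjusted p = 0.423). Mrps6, also of bacterial descent, measured 9.21, 9.08 and 8.97 in KO and 9.29, 9.23 and 9.36 in WT. Again the groups did not overlap (log2 difference -0.21, SE 0.09). Mrps22, a mitochondria-specific protein needed for a stable small subunit in humans, measured 9.72, 9.55 and 9.43 in KO and 9.78, 9.76 and 9.78 in WT. Its WT arrays were nearly equal, and its KO arrays were further apart and all lower, with a log2 difference of -0.21 (SE 0.09).

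Mrps15 and Mrps21, both of bacterial descent, gave log2 differences of -0.16 (SE 0.07) and -0.19 (SE 0.09), and the KO arrays lay below the WT arrays in both. Mrps5, near the mRNA entry, gave -0.15 (SE 0.09) and its second probe set -0.13, with overlap in both. Mrps12, the protein of the decoding centre, measured 7.79, 7.75 and 7.72 in KO and 7.98, 7.73 and 8.04 in WT. WT replicate 2 was as low as the KO arrays, and the log2 difference was -0.16 (SE 0.10). Mrps34, a mitochondria-specific protein, gave -0.18 (SE 0.11), Mrps18b -0.14 (SE 0.12) and Mrps36 -0.09 (SE 0.08). Mrps36 is now regarded as a subunit of the 2-oxoglutarate dehydrogenase complex rather than of the ribosome.

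The members placed in the large subunit by structure differed in sign, with log2 differences of -0.12 (SE 0.10) for Mrps30 and 0.02 (SE 0.11) for Mrps18a. Mrps17 gave 0.01 (SE 0.09). Mrps31 had the highest moderated t of the small subunit, with 9.09, 9.15 and 9.15 in KO and 9.32, 9.14 and 8.83 in WT. Its KO arrays were alike and its WT arrays far apart, and the log2 difference was 0.03 (SE 0.12). The signs of Mrpl37, Mrpl40, Mrpl22, Mrpl41, Mrpl49, Mrps17, Mrps18a and Mrps31 turned under some other scaling, weighting, probe set rule or choice of arrays. The other 20 named members had a KO minus WT difference of 1 sign throughout.

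**Figure D4:**
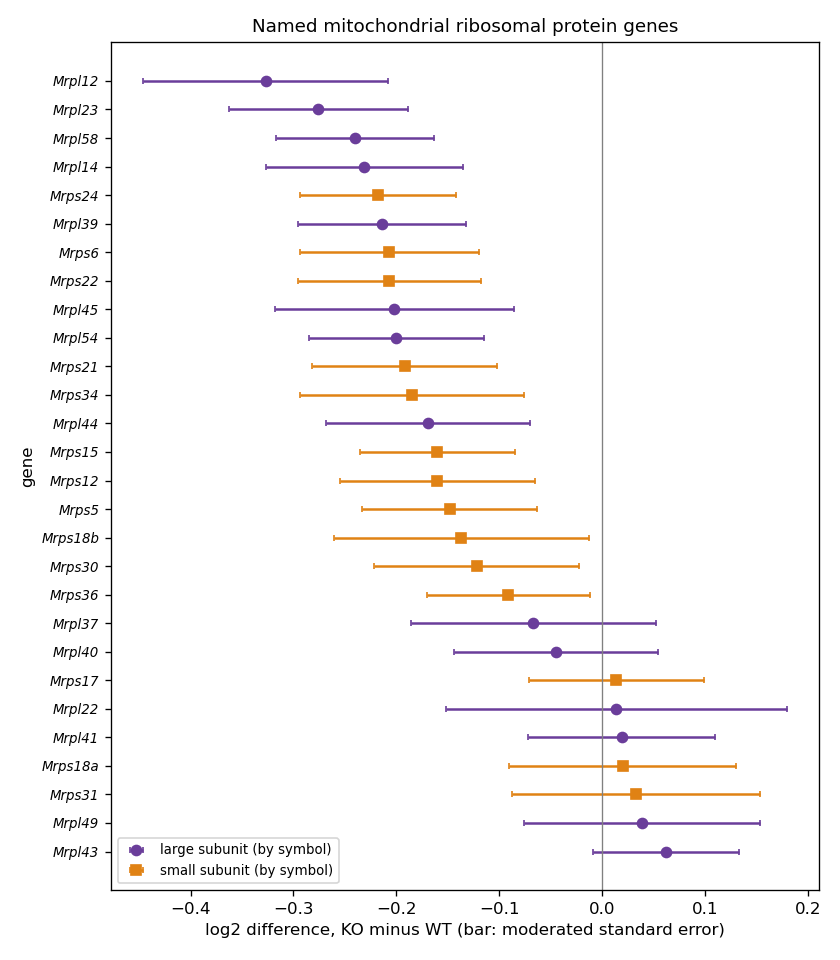
Log2 difference, KO minus WT (x axis), with moderated standard errors, of the 28 named members (y axis), with circles for large and squares for small subunit symbols. Differences run from -0.33 for Mrpl12 to 0.06 for Mrpl43, and no member passed after adjustment over all probe sets.

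By origin, 41 of 45 members with bacterial homologues were lower on average, and their median log2 difference was -0.13. Of 26 mitochondria-specific members 21 were lower, and their median was also -0.13. The remaining 6 members were not classed. By position in GRCm38.p6, 11 members share chromosome 11 with Jup, and the share of all genes on that chromosome was not counted. Of these 11 members 9 were lower, with a median of -0.16, against 58 of 66 elsewhere, with a median of -0.13. Mrpl10, at the base of the stalk, and Mrpl45 are the members nearest to Jup, within 5 Mb of it. Mrpl10 gave a log2 difference of -0.15 (SE 0.08).

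Of 5 measured genes listed as mitochondrial ribosomal under other symbols, 3 had KO means below the WT mean, and the list held Lactb (log2 difference 0.08), which is known as a beta-lactamase-like protein and not as a core subunit. Ptcd3, a small subunit protein with RNA-binding repeats, measured 9.72, 9.59 and 9.59 in KO and 9.80, 9.80 and 9.75 in WT. Chchd1, also of the small subunit, gave a log2 difference of -0.23 (SE 0.13), and Gadd45gip1, of the large subunit, 0.00 (SE 0.12). Of 19 measured translation factor and translation-linked genes 13 were lower, and their median was -0.03, and 0 passed at limma adjusted p under 0.05. Slirp, which stabilises mitochondrial mRNAs, was the lowest of them at -0.29 (SE 0.11), and Mrrf, the ribosome recycling factor, gave -0.18 (SE 0.12). Taco1, an activator of translation, and Gfm2, which splits ribosomes after termination, gave 0.07 and 0.06.

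Ribosome assembly and rRNA modification genes had 21 of 30 lower and a median of -0.05, again with 0 past the test. Eral1, a GTPase that binds the small subunit rRNA, measured 9.30, 9.29 and 9.33 in KO and 9.47, 9.39 and 9.53 in WT, without overlap (log2 difference -0.16, SE 0.07). Bcs1l, which was on the list but is known as a chaperone of respiratory complex III, gave -0.20 (SE 0.09). The rRNA methyltransferase gene Nsun4 gave 0.13 (SE 0.08) and Mettl17 0.12 (SE 0.12). Mitochondrial tRNA synthetases had 9 of 16 lower and a median of -0.01, close to that of all probe sets, with Yars2 at -0.14 (SE 0.07) and Fars2 at 0.23 (SE 0.14).

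Genes for copying, transcription and RNA processing of mitochondrial DNA had 13 of 22 lower and a median of -0.03. Tefm, the elongation factor of the mitochondrial RNA polymerase, measured 8.88, 8.55 and 8.43 in KO and 9.29, 9.07 and 9.16 in WT. All KO arrays were lower, and the log2 difference of -0.55 (SE 0.12) did not pass (limma adjusted p = 0.192). Pnpt1, an RNA-degrading enzyme of mitochondria, gave -0.21 (SE 0.09). Polg2, the accessory subunit of the mitochondrial DNA polymerase, gave 0.18 (SE 0.08), and Mterf2 0.35 (SE 0.17). Rows listed as the mitochondrially encoded ND3 and COX2 gave -0.08 and 0.01, and nuclear copies of mitochondrial DNA could share their probes.

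Known regulators of nuclear genes for mitochondrial proteins went both ways, and 0 of 10 passed at limma adjusted p under 0.05. Myc, a growth regulator, measured 11.91, 11.40 and 11.64 in KO and 12.33, 12.01 and 12.05 in WT. The groups did not overlap, and the log2 difference was -0.48 (SE 0.14, limma adjusted p = 0.346). Pprc1, a relative of the coactivator PGC-1, gave -0.17 (SE 0.08) and Yy1 -0.15 (SE 0.07). Nrf1 itself gave -0.02 (SE 0.08) and Gabpa, the DNA-binding subunit of GABP, 0.01 (SE 0.09), whereas Esrra, a nuclear receptor, and Gabpb1, the partner of Gabpa, gave 0.17 and 0.16. Ppargc1a, which encodes PGC-1alpha, was at 9.95 in KO replicate 1, against 8.31 and 8.63 in the other KO arrays and 8.18 to 8.42 in WT.

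For comparison, cytoplasmic ribosomal protein genes had 53 of 59 lower with a median log2 difference of -0.06. Nuclear oxidative phosphorylation genes had 63 of 75 lower with a median of -0.09. Every KO array was below every WT array in 28.8% of cytoplasmic ribosomal protein genes and in 32% of oxidative phosphorylation genes. For mitochondrial ribosomal protein genes this share was 26.0%. With an unadjusted limma p below 0.05, 8.5% of cytoplasmic ribosomal, 14.7% of oxidative phosphorylation and 13.0% of mitochondrial ribosomal protein genes were lower. By mean deviation, KO replicates 1, 2 and 3 were at -0.035, -0.103 and -0.082 for cytoplasmic ribosomal proteins, against 0.014, -0.021 and 0.007 in WT replicates 1, 2 and 3, without overlap. Oxidative phosphorylation genes were at 0.013, -0.119 and -0.151 in KO and 0.054, -0.017 and -0.037 in WT, with KO replicate 1 among the WT arrays as for the mitochondrial ribosome. Whether these medians and shares differ from those of the mitochondrial ribosomal protein genes was not tested.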

How the data were processed

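Gene expression was measured in 3 KO and 3 WT samples on 1-colour Affymetrix arrays. Going by their range, the values deposited are log2 intensities. The submitters' processing notes name RMA and Affymetrix Expression Console 1.1 for the authors' steps, whose options are not given in the sources used here. RMA equalises arrays and so removes any shift common to all genes, and it compresses changes of dim transcripts. Depth in reads does not apply, and precision is set by the number of arrays.

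Of 35556 rows, 21789 had exactly 1 gene symbol in the platform annotation. They were fitted with limma 3.58.1 in R 4.3.3 (lmFit, eBayes, prior degrees of freedom 4.33) with no covariate or filter, with Benjamini-Hochberg adjustment over all of them. Differences are KO minus WT. No set test was run. The members and lists were chosen with earlier results of these data known. Named members are, per subunit, the 6 lowest and 3 highest moderated t, the 3 highest and 2 lowest means, and 9 genes with a further role or placement; of every other list, the 2 lowest and 2 highest moderated t, of which those that bear on the text are given. Esrra, Gabpb1, Pprc1, Ppargc1a, Nrf1, Gabpa, Yy1 and Mrpl10 were named after their values were seen where the rule did not take them. The promoter motifs and windows were also chosen after values were seen. Ftsj1, whose enzyme is not mitochondrial, was removed from the assembly list after its value was seen. Gene IDs of all 77 members matched RefSeq symbols. The fit was checked on simulated data. Alternatives were each array left out, array weights, quantile normalization, median centring, a trended robust prior, all rows, a filter on dim probe sets, averaged probe sets per gene, the replicate number as a block, an adjusted p under 0.1, and 2 genes moved between subunits.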

Additional observations from a re-analysis of the deposited data

How the results depend on the processing

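When single arrays were dropped, members with a lower KO mean numbered 59 to 74, their median log2 difference was -0.18 to -0.096, that of the large subunit -0.185 to -0.101, that of the small -0.152 to -0.069 and large minus small -0.049 to -0.008. In the same fits 1 to 22 members were lower at an unadjusted p under 0.05, and over all probe sets 1 to 41 were higher and 3 to 41 lower after adjustment. No member passed after adjustment in any alternative of limma, and the adjusted p of named members was 0.145 at the lowest. Members lower at an unadjusted p numbered 5 with all rows tested and 16 with array weights. The counts over all probe sets, higher and lower, were 7 and 9 with all rows, 93 and 57 with array weights, 26 and 29 with median centring, 17 and 23 with a trended robust prior and 25 and 33 at an adjusted p under 0.1, against 11 and 15; the cause was not tested. With Mrps30 and Mrps18a in the large subunit, large minus small was -0.004. The median of all probe sets stayed between -0.029 and -0.004 in every alternative. The median of the tRNA synthetase list turned in sign in 4 alternatives and that of the translation factors in 1, and with Ftsj1 the assembly list was at -0.072.

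With the replicate number as a block, 13 members were lower at an unadjusted p under 0.05 and 0 passed after adjustment, and over all probe sets 8 were higher and 11 lower; medians were the same by construction. Deviations of samples with the same number correlated at 0.104, -0.004 and 0.275 for numbers 1, 2 and 3. KO replicates 1 and 3 correlated best with the WT replicate of their own number, and KO replicate 2 with WT replicate 1 (0.134). Whether samples with the same number share more than the number was not tested and cannot be told from these values.

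All members were brighter than the median of all probe sets, and their standard errors were 0.071 to 0.166.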
